A study of Mus musculus with 6 samples.

Results

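The genes described here build, remodel and anchor the actin cytoskeleton: 41 genes for actins, actin-monomer and filament binding proteins, myosin light chains, focal adhesion proteins, membrane linkers and a pair of tubulins. They were chosen by symbol, and each was read from 1 probe set, the one of highest mean signal on the 6 arrays among those annotated with exactly 1 symbol. In this way 38 of the 41 were measured, out of 18193 genes in all. Arpc1b, Arpc3 and Tuba1c were not analysed here, since a probe set with several symbols was never used to name a gene.

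The arrays carried RNA of eGFP-expressing cells that had been sorted from mouse somatosensory cortex (grey matter), in a study of galectins after brain injury. The 3 reactive arrays came from mice of the line TgN(hGFAP-EGFP) GFEA, whose reporter is driven by the human GFAP promoter, taken 5 days after a stab wound. The 3 non-reactive arrays came from uninjured mice of the line Tg(Aldh1l1-eGFP)OFC789Gsat, whose reporter is driven by Aldh1l1 regulatory sequence. All animals were FVB/N, 2 to 3 months old and of undetermined sex, and every array was 1 pool of cells from about 15 animals. Injury, reporter line and the sort that goes with it changed together, so their effects cannot be told apart. The labels call the arrays biological replicates, so the p-values measure the spread between pools. Values are the authors' log2 expression per probe set after RMA, the robust multi-array average.

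Actin filaments grow from monomers that thymosins and profilin hold in reserve or deliver, branch through the Arp2/3 complex, and are taken apart by cofilin. Tropomyosins and calponins coat the filaments, α-actinin and filamin cross-link them, and myosin II pulls on them. Talin, vinculin, zyxin and integrin-linked kinase tie them to integrins at focal adhesions, while ezrin, radixin and moesin tie them to the plasma membrane. In astrocytes this machinery shapes the fine processes around synapses and vessels, and in microglia and leukocytes it drives migration and phagocytosis. Many of these genes are known targets of serum response factor (SRF), which binds the CArG box.

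That known link gives a sequence feature to describe. The genes were chosen by symbol, but as a family with many known SRF targets, so the share below is not an independent finding. In RefSeq promoter windows of assembly GRCm38.p6, from 250 bases before to 50 after a gene's start, 5 of 37 listed genes with a window held a CArG box (10 bases: CC, then A or T only, then GG). This was 13.5% of them, against 1.81% of the 27025 genes in the table. Actb, Coro1b, Plec and Tubb6 had no window and were not searched. The pattern is its own reverse complement, so a search of 1 strand covers both. The windows of the listed genes had a median GC content of 62.0%, against 52.7% over all windows. The boxes are shown in capitals with 15 bases on either side, 5′ to 3′ on the strand of the gene, because they are the best known control element of this gene family.
Actg1, chr11:120348561-120348600, minus strand: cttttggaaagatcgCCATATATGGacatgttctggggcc
Cnn2, chr10:79988529-79988568, plus strand: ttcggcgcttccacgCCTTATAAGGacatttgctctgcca
Myl6, chr10:128493035-128493074, minus strand: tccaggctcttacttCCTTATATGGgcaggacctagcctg
Myl9, chr2:156775288-156775327, plus strand: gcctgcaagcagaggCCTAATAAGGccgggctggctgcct
Vcl, chr14:20929156-20929195, plus strand: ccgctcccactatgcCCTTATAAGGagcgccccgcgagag
Cnn2 and Vcl carry the same 10 bases. A match is a description of these letters and not a measured binding site. The log2 differences of these 5 genes, given again with their roles below, ran from -1.32 for Vcl to 0.65 for Cnn2, with a median of 0.34. The 29 measured genes with a window and no box ran from -0.94 to 2.03, with a median of 0.56.

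None of the 38 genes passed the test between reactive and non-reactive arrays. The test was limma with Benjamini-Hochberg adjustment over all 45037 probe sets and a threshold of 0.05, and it called 0.951% of all genes, 0.39% higher and 0.561% lower. At an unadjusted p under 0.05 there were 8 higher genes and 1 lower, where the background was 7.88% and 7.13% of all genes. The lowest adjusted p was 0.146, for Tmsb4x. The 38 log2 differences ran from -1.32 to 2.31 with a median of 0.48, against a median of 0.12 over all genes. A difference above 0 was seen for 25 of the 38 (65.8%, against 60.7% of all genes). At least 2-fold higher were 7 of them (18.4%, background 5.65%): Tubb6, Tpm4, Capg, Coro1a, Tagln2, Arhgdib and Ahnak. At least 2-fold lower was 1 (2.63%, background 6.61%), Vcl. Groups did not overlap for 7 genes that were higher (18.4%, background 13.5%), Tmsb4x, Coro1a, Capg, Arhgdib, Tagln2, Myl6 and Tln1. The same held for 3 that were lower (7.89%, background 8.2%), Arpc2, Actn4 and Ilk. Leaving out reactive replicate 3 brought the median down to 0.20, beside 0.11 over all genes. That left 6 of the 38 genes at least 2-fold higher, against 6.39% of all genes. Capg and Ahnak were then no longer among these, and Tln1 was. Without reactive replicate 1 there were 13 such genes (7.4% of all genes), and with the probe sets of a gene averaged 4 (3.85% of all genes). Some probe sets have a suffix (_x_at, _s_at or _a_at) that marks sequence shared between transcripts. Without these there were 4 of 33 measured (5.23% of all genes).

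**Figure D1:**
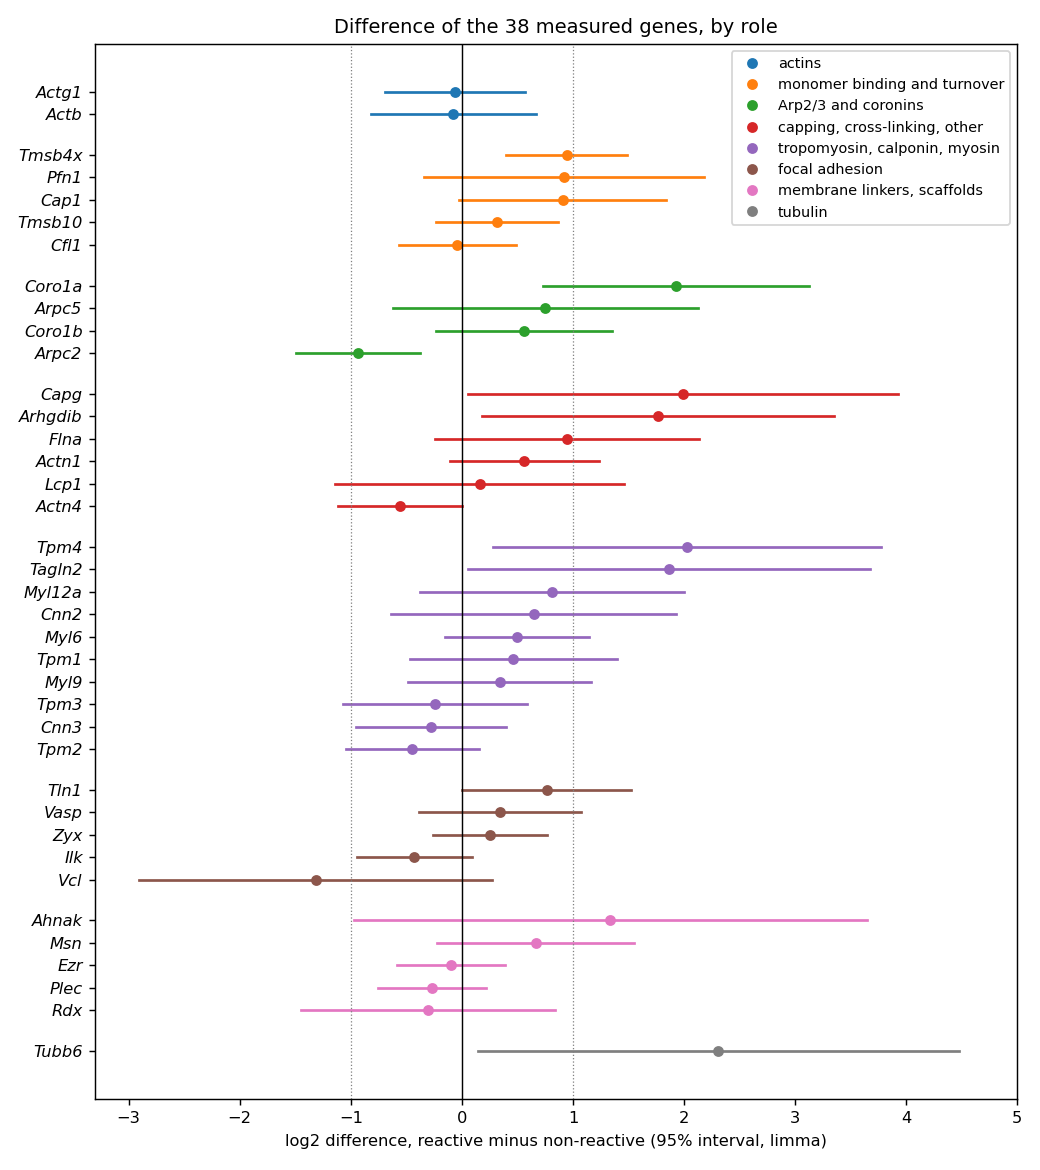
Log2 difference between reactive and non-reactive arrays (x axis) for each of the 38 measured genes, grouped and coloured by role, with points for the estimate and lines for limma's 95% interval; dotted lines mark a 2-fold difference. Differences run from -1.32 for Vcl to 2.31 for Tubb6, and most lines cross 0.

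Precision differed between the genes. The 95% interval lay within a 2-fold difference either way for 9 of the 38 genes (23.7%, against 42.4% of all genes): Actb, Actg1, Tmsb10, Cfl1, Cnn3, Zyx, Ilk, Ezr and Plec. For the 38 genes the median half-width of the interval was 0.83 on the log2 scale, against 0.72 over all genes. The spread between replicates was larger in the reactive group for 26 of the 38 (68.4%, against 65.9% of all genes). Its median SD was 0.44 among reactive and 0.34 among non-reactive arrays, against 0.40 and 0.28 over all genes.

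The 7 genes whose probe sets had a mean signal above 10 (log2) had a median difference of -0.061, from -0.94 to 0.94, and none of them differed 2-fold. The other 31 had a median of 0.56 and held all 7 genes at least 2-fold higher. Over all genes the medians in the same bands of signal were -0.016 and 0.12. At least 2-fold higher were 6.46% of all genes above 10 and 5.61% of those at 10 or below. The signal of a probe set is not a measure of one gene against another.

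Most of the 38 genes were highest on 1 array of the reactive group. Reactive replicate 3 held the highest of the 3 reactive values for 27 of them, or 71.1%, against 33.4% of all genes. Reactive replicate 1 held the lowest for 21 of the 38, against 30.4% of all genes. Measured from each gene's non-reactive mean, the median of the 38 was 0.078, 0.29 and 0.79 on reactive replicates 1, 2 and 3, while the median of all genes was 0.12, 0.074 and 0.086. On the non-reactive arrays the median of the 38 was 0.12, -0.098 and 0.017. At least 2-fold above the non-reactive mean were 3, 11 and 16 of the 38 on the 3 reactive arrays, against 8.46%, 9.46% and 10.8% of all genes.

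**Figure D2:**
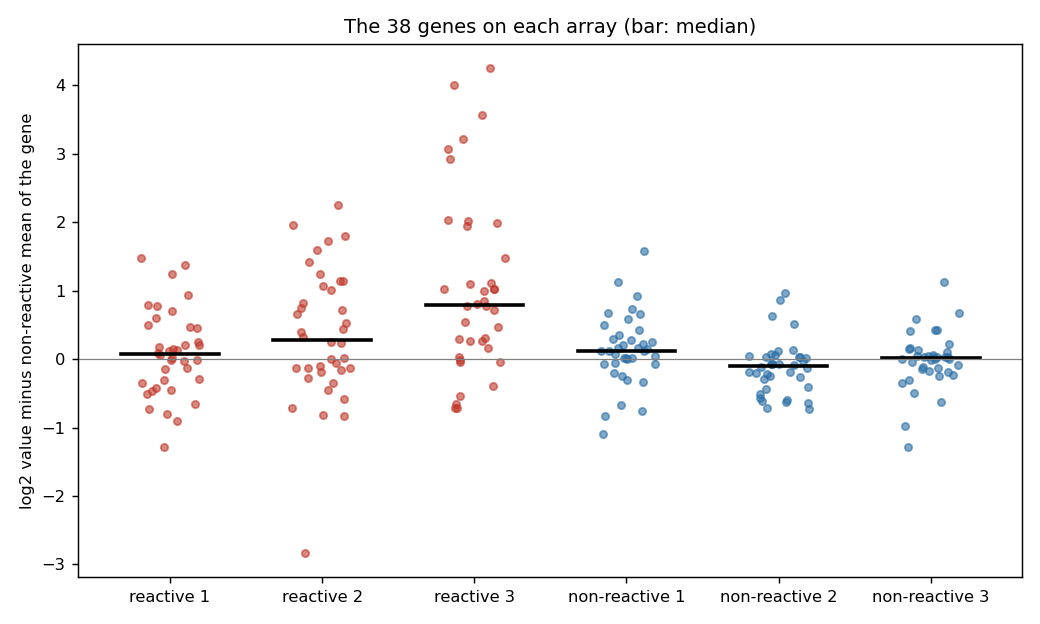
Each point is 1 of the 38 genes on 1 array, as its log2 value minus its mean over the non-reactive arrays (y axis), for the 3 reactive (red) and 3 non-reactive (blue) arrays; black bars are medians. The median is 0.078, 0.29 and 0.79 on reactive replicates 1, 2 and 3, and the upper points of reactive replicate 3 reach above 4.

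Markers of other cell types moved on the same arrays. The summed linear level of 6 fibroblast markers was 1137 on reactive replicate 3, against 132 and 302 on the other reactive arrays and 403 to 829 on the non-reactive arrays. That of 9 endothelial markers was 1347 there, against 266 to 331 and 231 to 336. The fibroblast sums on the non-reactive arrays came mostly from Pdgfrb, which is also counted in the mural list below. It read 4.6, 7.7 and 6.8 on reactive replicates 1, 2 and 3 and 8.2, 9.4 and 8.2 on the non-reactive arrays. Col1a2, a fibrillar collagen chain, read 5.01, 4.95 and 8.54 on reactive replicates 1, 2 and 3 and 4.79 to 5.17 on the non-reactive arrays. Cldn5, a tight junction protein of brain endothelium, read 5.45, 5.53 and 9.36 on them and 4.51 to 5.61. Col1a2 and Cldn5 were picked after their values were seen, and not every marker followed them. Of the 9 endothelial markers 7 had their highest reactive value on replicate 3, but Slco1a4 was lowest there (5.51, 4.84 and 4.67), and Flt1 at 5.23 lay within its non-reactive range of 4.92 to 5.91. Of the 6 fibroblast markers 4 were highest there. The 11 mural markers summed to 388, 510 and 983 on reactive replicates 1, 2 and 3 and to 620 to 1089 on the non-reactive arrays. Reactive replicate 3 thus lay within the non-reactive range, but Pdgfrb was the largest part of the mural sum on each non-reactive array, so that range leans on it. Of the 11 mural markers, 5 were highest on reactive replicate 3. Acta2, the actin of smooth muscle, read 5.39, 5.28 and 8.63 on the reactive arrays and 4.56 to 5.39 on the others, while Kcnj8, a pericyte channel, read 5.48, 5.11 and 4.82, and Myh11 and Cnn1 had means below 4.74 in both groups. Abcc9 and Anpep, also mural markers, had reactive means below 4.74, the median signal of the probe sets. So did Lum, a fibroblast marker, and Pecam1, Cdh5, Tek and Emcn, endothelial markers.

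Microglia and macrophage markers summed to 26394 to 41397 on the reactive and 9911 to 10408 on the non-reactive arrays, and 7 of 17 passed as higher, among them Cd68, Cd14, C1qc and C1qa. Blood leukocyte markers summed to 2693 to 5486 and 342 to 531, with 3 of 11, Lyz2, Cd52 and Plac8, passing as higher. The reactive sums came mostly from Lyz2 and Cd52, with reactive means of 10.96 and 9.96. Of the 11 markers, 5 were at least 2-fold higher, but Ccr2, Cd3e, Cd3d, Cd79a and Itgal differed by -0.029, 0.15, 0.032, -0.080 and 0.18. The microglia and leukocyte sums were both highest on reactive replicate 3 as well. Neuron markers summed to 8244, 10115 and 4183 on reactive replicates 1, 2 and 3 and to 7073 to 10535 on the non-reactive arrays, so reactive replicate 3 was the lowest of all 6. In the reactive group Itgam of the first list and S100a9, Cd79a and Itgal of the second had means below 4.74. Oligodendrocyte markers summed to 24361 to 26509 and 20277 to 25445, and 1 of 11, Ermn, passed as higher. The brightest of them, Mbp, was the only one below 0: the other 10 lay above 0, and 6 were at least 2-fold higher, with Cldn11 at 3.02 and Opalin at 2.30 among those that did not pass. Of the 11, 9 had their highest reactive value on replicate 3. No marker of the precursor, mural, endothelial, fibroblast or neuron lists passed in limma. All 12 markers of astrocytes, the labelled cell type, had means above 4.74 in both groups. So did all 11 oligodendrocyte and all 5 precursor markers, so this level alone does not identify a cell type. The astrocyte sum was 20758 to 21776 on reactive arrays and 38344 to 51361 on non-reactive arrays. Of the 12 astrocyte markers, Gfap passed as higher and 4 as lower, Gjb6, Sox9 and Slc1a3 among them. Gfap was the only one above 0. The other 11 lay below 0, with 9 at least 2-fold lower (background 6.61%) and 10 with groups that did not overlap (background 8.2%). The markers of highest signal that did not pass differed by 0.42 for Csf1r, 1.94 for Ptprc (-0.82 at the probe set used when suffixed ones were left out), -0.49 for Mbp, -1.11 for Aldoc, 0.67 for Pdgfra, -2.24 for Pdgfrb, 1.18 for Kdr and -0.30 for Rbfox3. In pooled sorted cells, fewer cells of a type and less RNA per cell cannot be told apart. The part of these cell types in the differences described below was not tested.

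**Figure D3:**
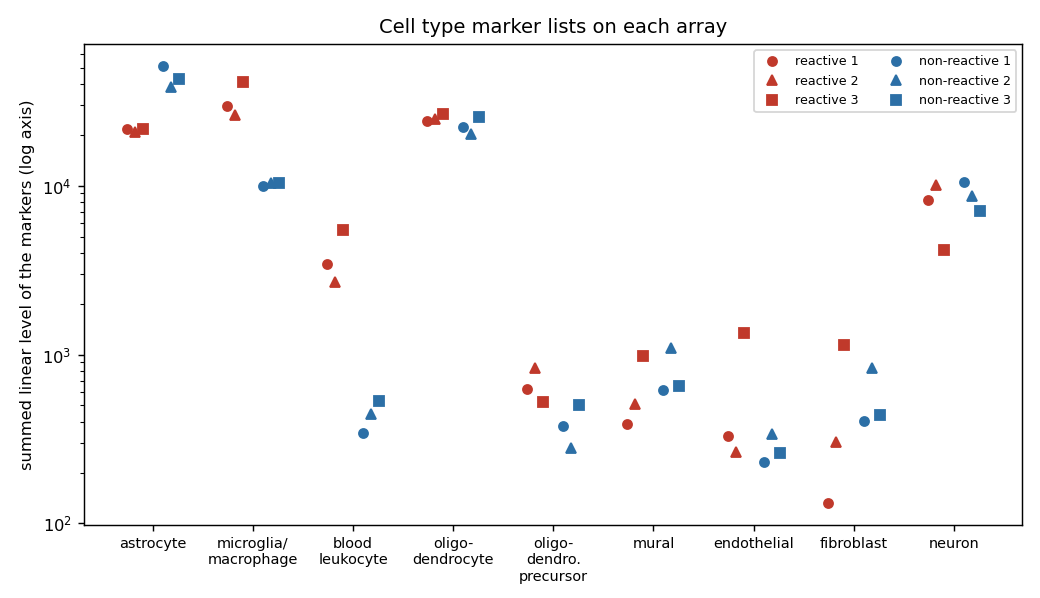
Summed linear level (2 to the power of the log2 value, log axis) of each marker list on each of the 6 arrays, red for reactive and blue for non-reactive, with circle, triangle and square for replicates 1, 2 and 3. Reactive replicate 3 is the highest reactive array for the microglia, leukocyte, oligodendrocyte, mural, endothelial and fibroblast lists. It is the lowest of all arrays for the neuron list, at 4183. For the mural list, at 983, it lies within the non-reactive range. Pdgfrb is counted in both the mural and the fibroblast list.

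The cytoplasmic actins themselves were close to level between the groups. Actb, which encodes β-actin, read 11.66, 12.02 and 12.42 on the reactive and 12.54, 11.68 and 12.11 on the non-reactive arrays. The groups overlapped, with a difference of -0.078 (SE 0.31, 95% interval -0.82 to 0.66, limma adjusted p = 0.928). Its other probe set differed by 0.070 (SE 0.42). Actg1, the γ-actin gene, read 11.73, 11.61 and 11.71 in the reactive group and 12.25, 11.48 and 11.50 in the non-reactive group. Its difference was -0.061 (SE 0.26, 95% interval -0.69 to 0.57, limma adjusted p = 0.935). Actin genes have many pseudogene copies. The probe sets used for Actb (_a_at) and Actg1 (_s_at) both carry a suffix for sequence shared between transcripts, so which transcripts they read is uncertain. Neither sign is settled: Actb differed by 0.11 when reactive replicate 1 was left out. Leaving out non-reactive replicate 1 instead gave 0.14 for Actb and 0.19 for Actg1.

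Control probe sets along the Actb transcript gave a second view of β-actin and of RNA quality. Those at the 3′ end read 12.54, 12.37 and 12.93 on the reactive and 13.16, 12.73 and 12.83 on the non-reactive arrays. At the 5′ end they read 8.28, 9.84 and 9.57 against 8.67, 7.44 and 7.47. The 3′ minus 5′ gap was therefore smaller in the reactive group, 4.27, 2.53 and 3.35 against 4.48, 5.29 and 5.37, on replicates 1, 2 and 3. The other controls did not all follow. The mean gap was also smaller in the reactive group for Gapdh (4.17 against 5.19) and for pyruvate carboxylase (1.44 against 3.46), close to level for the transferrin receptor (0.55 against 0.43), and larger for 18S RNA (0.83 against -1.15). The part of RNA quality in the other differences was not tested.

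The 5 genes that hold and recycle actin monomers had a median difference of 0.91. Tmsb4x encodes thymosin β4, the main monomer-sequestering peptide of many cells. It read 13.11, 13.33 and 13.35 on the reactive and 12.67, 12.11 and 12.18 on the non-reactive arrays. All 3 reactive values lay above all 3 non-reactive values. The difference was 0.94 (SE 0.23, 95% interval 0.40 to 1.49, limma adjusted p = 0.146), a ratio of 1.92, and it ran from 0.78 to 1.12 over the alternatives. Pfn1, profilin 1, which loads monomers onto growing ends, read 6.96, 8.51 and 7.64 against 7.70, 6.22 and 6.43. Its groups overlapped through non-reactive replicate 1, and the difference of 0.92 (SE 0.53) had an adjusted p of 0.505 in limma. Cap1, a monomer-recycling protein, differed by 0.91 (SE 0.39), and Tmsb10, thymosin β10, by 0.32 (SE 0.23). Cfl1, cofilin 1, which severs old filaments, differed by -0.040 (SE 0.22), with means of 12.44 ± 0.30 and 12.48 ± 0.063 (SD, n = 3).

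Among Arp2/3 subunits and coronins the directions were mixed. Arpc2, a core subunit that holds the complex on the mother filament, read 10.70, 11.17 and 11.28 on the reactive and 12.13, 12.01 and 11.81 on the non-reactive arrays. Every reactive value lay below every non-reactive value. The difference was -0.94 (SE 0.23, 95% interval -1.49 to -0.38, limma adjusted p = 0.155), and its other probe set differed by -1.41 (SE 0.31). The reactive mean of that other probe set, 3.61, lay below 4.74, so the size there is uncertain. With the mean of both probe sets Arpc2 was the only one of the 38 genes to pass under any alternative run: it fell by 1.17 on the log2 scale with a limma adjusted p of 0.0456, in a range up to 0.401 over the alternatives. Arpc5, another subunit, differed by 0.75 (SE 0.57), and by 0.11 without non-reactive replicate 3.

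Coro1a, the coronin of leukocytes and microglia, read 7.80, 8.57 and 8.36 on the reactive and 7.44, 5.68 and 5.82 on the non-reactive arrays. The groups did not overlap, although non-reactive replicate 1 lay close to reactive replicate 1. The difference was 1.93 (SE 0.50, 95% interval 0.73 to 3.13, limma adjusted p = 0.173), a ratio of 3.81. Of its other probe sets, 1 differed by 1.48 (SE 0.42), and 1 with low signal differed by 0.076. Coro1b, the widely expressed coronin, differed by 0.56 (SE 0.33). Beside Coro1a, the microglia and macrophage sums were 29679, 26394 and 41397 on reactive replicates 1, 2 and 3.

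Capping and cross-linking genes included other members known from blood cells. Capg, which caps filament ends and is abundant in macrophages, read 5.23, 4.70 and 7.99 on the reactive and 4.14, 3.79 and 4.02 on the non-reactive arrays. The groups did not overlap, but reactive replicate 3 lay far above the other reactive arrays. The difference was 1.99 (SE 0.81, limma adjusted p = 0.366), and 0.98 without reactive replicate 3. Its non-reactive mean of 3.98 lay below 4.74, so the size is uncertain. Arhgdib, a regulator of actin remodelling found mainly in blood cells, read 7.40, 7.59 and 9.67 against 7.13, 5.75 and 6.49. Its groups did not overlap, and the difference was 1.77 (SE 0.66, limma adjusted p = 0.334), or 1.04 without reactive replicate 3. Lcp1, the leukocyte plastin that bundles filaments, differed by 0.16 (SE 0.54), and its other probe set by 1.21 (SE 0.68). Flna, filamin A, differed by 0.95 (SE 0.50), or by 0.41 without reactive replicate 3. The α-actinin genes went opposite ways, with Actn1 at 0.56 (SE 0.28) and Actn4 at -0.56 (SE 0.23), and every reactive value of Actn4 lay below its non-reactive values.

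Tropomyosins, calponin relatives and myosin light chains were spread from -0.45 to 2.03. Tpm4, a short tropomyosin of non-muscle cells, read 7.08, 7.50 and 8.62 on the reactive and 7.28, 5.10 and 4.73 on the non-reactive arrays. Non-reactive replicate 1 lay above reactive replicate 1, so the groups overlapped. The difference was 2.03 (SE 0.73, 95% interval 0.28 to 3.78, limma adjusted p = 0.315), a ratio of 4.09. Tagln2, transgelin 2, a calponin-family protein that stabilises filaments, read 7.47, 7.94 and 10.25 against 5.94, 6.77 and 7.36. Its groups did not overlap, but reactive replicate 1 exceeded non-reactive replicate 3 by little. The difference was 1.86 (SE 0.76, limma adjusted p = 0.366), 1.01 without reactive replicate 3, and 0.72 and 0.038 at its other probe sets.

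The other tropomyosins differed less than Tpm4, and only Tpm1 lay on the same side of 0. It differed by 0.46 (SE 0.39), Tpm2 by -0.45 (SE 0.25) and Tpm3 by -0.24 (SE 0.35). Their probe sets disagreed: for Tpm1 the others differed by 0.53, -0.79 and 0.049, and those of Tpm2 and Tpm3 lay between 0.026 and 0.46. Such probe sets can read different splice forms. Cnn3, calponin 3, differed by -0.28 (SE 0.28), and its other probe sets by 0.13, 0.095, -0.42, 0.74 and 0.13. Cnn2, calponin 2, differed by 0.65 (SE 0.54). Cnn2 read 5.70, 5.46 and 7.53 on the reactive arrays, and its difference was -0.0055 without reactive replicate 3. The myosin light chains Myl12a, Myl6 and Myl9 differed by 0.81 (SE 0.50), 0.50 (SE 0.27) and 0.34 (SE 0.35). Without reactive replicate 3 Myl12a differed by 0.23 and Myl6 by 0.25. Both group means of Myl9, the smooth muscle form, lay below 4.74, so little can be read from it.

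**Figure D4:**
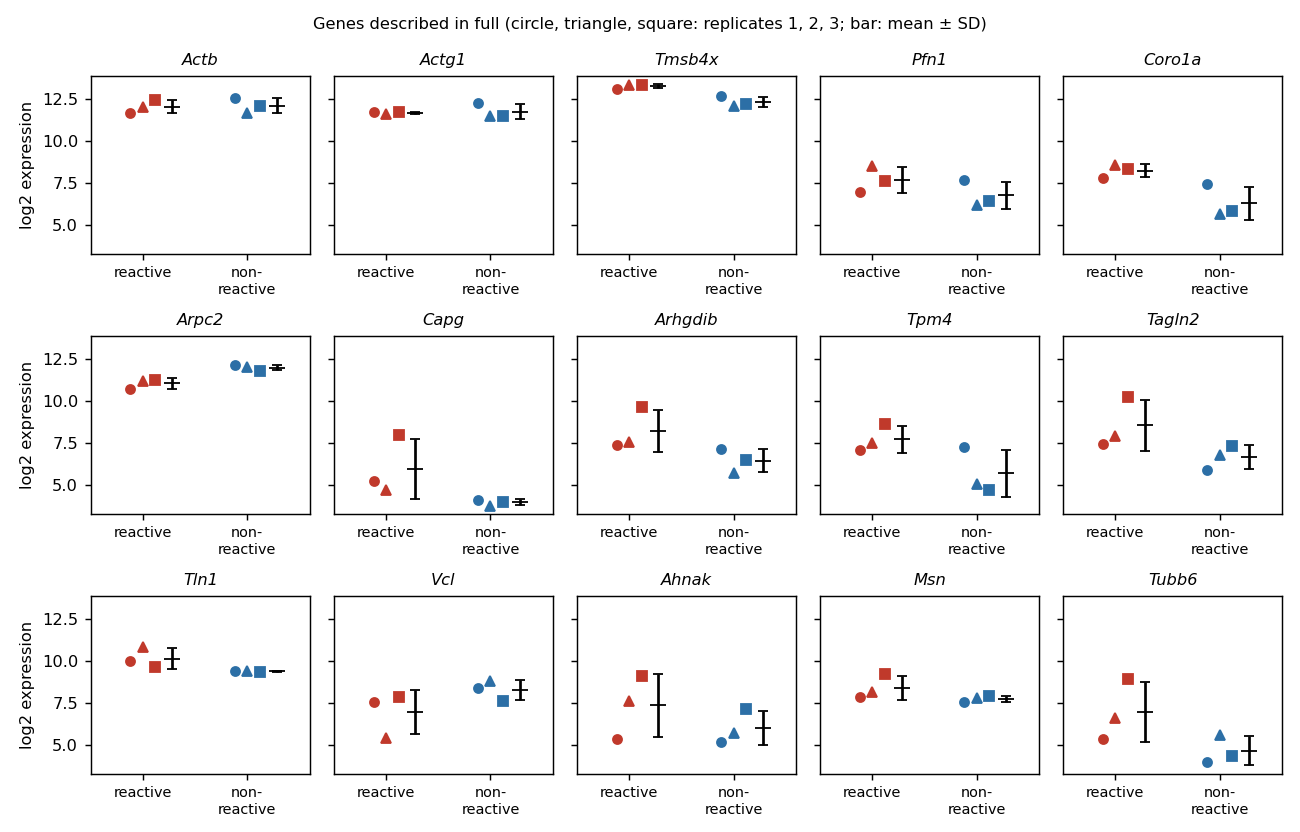
Log2 expression (y axis) of the 15 genes described with every value, for the reactive (red) and non-reactive (blue) arrays, with circle, triangle and square for replicates 1, 2 and 3 and black bars for mean ± SD. For Capg, Arhgdib, Tagln2, Ahnak and Tubb6 the square of reactive replicate 3 lies well above the other reactive arrays, while Actb and Actg1 overlap between the groups.

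Focal adhesion genes had a median difference of 0.25. Tln1, talin 1, which activates integrins and binds actin, read 9.99, 10.81 and 9.65 on the reactive and 9.40, 9.42 and 9.34 on the non-reactive arrays. All reactive values were higher, and here reactive replicate 2 was the highest. The difference was 0.76 (SE 0.32, 95% interval 0.00047 to 1.53, limma adjusted p = 0.377), while its other probe sets differed by -0.28 and 0.14. Vcl, vinculin, which reinforces the talin link, read 7.55, 5.46 and 7.89 against 8.41, 8.79 and 7.65. The groups overlapped between reactive replicate 3 and non-reactive replicate 3, and reactive replicate 2 lay far below the rest. The difference was -1.32 (SE 0.67, limma adjusted p = 0.456), and -0.56 without reactive replicate 2. Its other probe set differed by -0.75 (SE 0.49), but both its means, 3.37 reactive and 4.11 non-reactive, lay below 4.74. Ilk, integrin-linked kinase, differed by -0.43 (SE 0.22), with every reactive value below the non-reactive values. Zyx, zyxin, and Vasp, which promotes filament growth at adhesions, differed by 0.25 (SE 0.22) and 0.34 (SE 0.31).

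The membrane linkers moesin, ezrin and radixin differed in direction, and none passed. Msn, moesin, the linker common in leukocytes and endothelium, read 7.88, 8.15 and 9.23 on the reactive and 7.55, 7.79 and 7.92 on the non-reactive arrays. The groups met at their edges, where non-reactive replicate 3 exceeded reactive replicate 1. The difference was 0.67 (SE 0.37, limma adjusted p = 0.492), and 0.26 without reactive replicate 3. Ezr, ezrin, the linker of fine astrocyte processes, differed by -0.098 (SE 0.21), but its other probe set, with all reactive values below the non-reactive ones, differed by -1.39 (SE 0.48, limma adjusted p = 0.295). Rdx, radixin, differed by -0.31 (SE 0.48), and by -1.79 and -0.45 at its other probe sets.

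Large scaffold proteins also varied by array. Ahnak, a giant scaffold beneath the plasma membrane, read 5.38, 7.63 and 9.11 on the reactive and 5.20, 5.76 and 7.16 on the non-reactive arrays. The groups overlapped widely, and the difference of 1.33 had an SE of 0.97 (limma adjusted p = 0.586); without reactive replicate 3 it was 0.47. Its other probe sets, of lower signal, differed by -0.33, 0.16 and 0.52, and with all averaged the difference was 0.42. Plec, plectin, which links actin to intermediate filaments, differed by -0.27 (SE 0.20).

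Tubb6, a β-tubulin isotype, had the largest difference of the 38. It read 5.38, 6.64 and 8.92 on the reactive and 4.01, 5.64 and 4.37 on the non-reactive arrays. The groups overlapped, since non-reactive replicate 2 lay above reactive replicate 1. The difference was 2.31 (SE 0.91, 95% interval 0.15 to 4.47, limma adjusted p = 0.351), and 1.34 without reactive replicate 3. Its non-reactive mean of 4.67 lay below 4.74, so the size is uncertain, and its other probe set differed by -0.84 (SE 0.47).

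Over all 85 probe sets annotated to the 38 genes alone, none passed in limma, against 0.85% of all probe sets. Of the 47 that were not used to represent a gene, 29 had the sign of the one that was, and 10 genes had probe sets on both sides of 0. Many of the 47 had a mean below 4.74, the lowest at 2.57, where a sign says little.

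A wider list of 149 genes of actin regulation, adhesion and tubulin, none of them among the 41, was read in the same fit. Of its 135 measured genes 2 fell and 0 rose, which is 1.48% and 0%, against 0.561% and 0.39% of all genes, and its median difference was 0.099. Rock1, a kinase that drives myosin contraction, read 8.10, 8.17 and 7.78 on the reactive and 9.44, 9.40 and 9.53 on the non-reactive arrays. The groups lay well apart, and Rock1 fell by 1.44 on the log2 scale (SE 0.20, limma adjusted p = 0.0409). Its call was lost without any 1 of the 6 arrays (adjusted p of 0.0711 to 0.153), with the replicate block (0.159), with the trended robust variance (0.0794) and with its probe sets averaged (0.0845). The averaged difference of Rock1 was -1.01. Ccn1, a matricellular target of SRF and YAP, fell by 4.28 (SE 0.37, limma adjusted p = 0.0199) to a reactive mean of 4.09, below 4.74. Its call was lost without any 1 of the non-reactive arrays (0.0582 to 0.0701), with the replicate block (0.105) and with its probe sets averaged (0.0529). The averaged difference of Ccn1 was smaller, at -2.67.

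By role, 0 of 26 nucleation genes, 0 of 17 monomer and capping genes, 0 of 20 contractile and cross-linking genes, 0 of 25 adhesion genes, 0 of 12 membrane scaffold genes and 0 of 10 tubulins passed in limma, and 1 of 10 genes of the SRF and YAP list did. Gsn, gelsolin, a severing protein, measured 10.93 ± 0.81 and 9.05 ± 0.51 (log2, SD, n = 3), a difference of 1.88 without passing (limma adjusted p = 0.147). Pdlim7, an adaptor of actin stress fibres, differed by 1.87 (SE 0.51), Rhog, a small GTPase of ruffling, by 1.41 (SE 0.41) and Cfl2, the muscle cofilin, by 1.02 (SE 0.43). On the lower side Trip6, a zyxin relative, differed by -1.82 (SE 0.54), Diaph2, a formin, by -1.59 (SE 0.72), Cyfip2, a WAVE complex subunit, by -1.39 (SE 0.43) and Slc9a3r1, a scaffold that binds ezrin, by -0.93 (SE 0.21). Tagln and Acta2, contractile genes of smooth muscle, differed by 1.33 (SE 0.48) and 1.36 (SE 0.89), and Ccn2 by 1.82 (SE 1.19), with reactive values of 4.01, 3.78 and 8.44. Ssh2, a cofilin phosphatase, differed by 0.96, Iqgap1, a scaffold of Rac and Cdc42, by 1.16, Tubb3, the neuronal β-tubulin, by 1.05, Tubb4b by 0.83 and Fhl1 by -0.62, and none of these passed.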

How the data were processed

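The authors deposited log2 expression values made with RMA, per the submitters' processing notes. No RMA version, background setting or set of arrays is named in the labels. Array medians lay between 4.65 and 4.73, and correlations between arrays were 0.901 to 0.921 (reactive pairs), 0.95 to 0.963 (non-reactive pairs) and 0.889 to 0.93 (mixed pairs). The number of arrays, 3 per group, limits the precision.

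Of 45101 probe sets, 64 controls were left out. The platform annotation gave 1 symbol for 34945, several for 932 and none for 9160; 34741 matched the RefSeq gene table of GRCm38.p6, which changed 0 symbols. RefSeq promoter windows came from the same assembly, and the array files name no build.

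The fit used limma 3.58.1 (lmFit, eBayes; R 4.3.3) with no covariate, two-sided, and was tested on simulated data. Gene lists carry no set test, and the count of 1 wider list is not reported here. The genes, lists and tests were chosen with earlier results of these data known. The named genes were, per role, the 2 with the largest difference plus both actins; per wider list, those passing and the 2 largest others; per marker list, those passing (up to 4) and the brightest. Alternatives were other scalings (quantile, median, cyclic loess), a trended robust variance, a filter at the median of probe set means, averaging the probe sets of each gene, no suffixed probe sets, the replicate block and each array left out. Same-numbered arrays did not deviate together (correlations of -0.0726, -0.107 and 0.0371), so the numbers were not taken as pairs.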

Additional observations from a re-analysis of the deposited data

How the results depend on the processing

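The count of called genes stayed at 0 of the measured genes with limma under each alternative run, except averaging the probe sets of each gene, which called 1, Arpc2. The median difference stayed between 0.38 and 0.53 under the scalings, variance model, filter and choices of probe set, and between 0.20 and 0.68 with 1 array left out. With the replicate block limma called 0 of the 38 genes, 0 of the 135 wider genes and 0 of all genes (2401 at an unadjusted p under 0.05), against 173 of all genes without it. Without any 1 of the non-reactive arrays 0 of all genes were called, and without reactive replicate 1, 2 or 3 there were 20, 74 and 77; the trended robust variance gave 110. Fewer than 135 of the wider genes were measured without suffixed probe sets. Of those, 4 were called, 1 higher and 3 lower, against 146 of all genes measured in that run. Of the 135 wider genes 1 was called with the trended robust variance and 0 to 1 with an array left out. The mean of probe sets also called 1 of the 135, against 185 of all genes. These wider checks were chosen after seeing the data. The sign of the following differences turned, and none of them was called. With the mean of probe sets Cfl1 was at 0.021, Tpm2 at 0.10, Tpm3 at 0.16 and Cnn3 at 0.065. Without suffixed probe sets Actb was at 0.070, Cfl1 at 0.082, Tpm2 at 0.36, Tpm3 at 0.20, Cnn3 at 0.74 and the leukocyte marker Ptprc at -0.82. With an array left out, Actb ranged from -0.29 to 0.14, Actg1 from -0.19 to 0.19, Cfl1 from -0.21 to 0.076, Lcp1 from -0.39 to 0.60, Tpm3 from -0.50 to 0.046, Cnn2 from -0.0055 to 1.03, Myl9 from -0.040 to 0.54 and Ezr from -0.20 to 0.010. For the probe set settings another probe set gave the value; for the rest the cause was not tested.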
